A study of Anas platyrhynchos with 6 samples.

Results

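Exonic circular RNA (circRNA) junctions of the small chromosomes of the duck were described in embryonic breast muscle. The members were the back-splice junctions of circRNA type on chromosomes numbered 11 and above. Entries with the same chromosome, end and strand and with starts 1 base apart were joined into 1 junction with the larger read count. There were 2819 such junctions from 1059 host genes on 18 chromosomes (11 to 16 and 18 to 29), out of 14918 junctions of all types and 11341 exonic junctions on numbered chromosomes. The other 8522 exonic junctions, from 2709 host genes on chromosomes 1 to 10, were the comparison class.

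Embryos of the Shanma duck, all female, gave breast muscle. It was taken from 3 of them at embryonic day 13 (E13), when the labels describe the myoblasts as not differentiated, and from 3 others at day 19 (E19), when most had differentiated. The labels name no treatment and no engineered allele. Ribosomal RNA was removed, linear RNA was digested with RNase R, and reads crossing a back-splice were counted. Summed over all listed entries before joining, and so with both entries of a pair, these counts were 43849 to 88916 per library. Whole tissue was sequenced, so fewer cells of a type and fewer circles per cell cannot be told apart.

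The karyotype of birds holds a few large chromosomes and many small ones, the microchromosomes, which are rich in genes and in G and C and have short introns. A circRNA arises when the spliceosome joins the end of an exon to the start of the same or an upstream exon, and long flanking introns favour this in many animals. A circRNA usually keeps its exons and loses the introns between them. The span of a junction, meaning the genomic distance between its back-splice sites, therefore includes introns that the spliced molecule does not hold.

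Number was compared with size through the last junction end on each chromosome, which is a lower limit of its length. It lay between 2.135 Mb (chromosome 26) and 21.67 Mb (chromosome 11), against 20.65 Mb (chromosome 10) to 202.4 Mb (chromosome 1). Of the 18 chromosomes, 15 ended before every chromosome of the comparison class. Chromosomes 11, 12 and 13 reached beyond chromosome 10, so the boundary between 10 and 11 was not a gap in size. The build of the genome is not given in sources used here, and positions below follow the deposited list, with starts counted from 1.

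Junctions of the small chromosomes covered shorter stretches of genome but held as much exon sequence. Over all libraries the median span was 4667 bases (quartiles 1657 and 12554) on chromosomes 11 and above and 7598 bases (2869 and 17480) on chromosomes 1 to 10. The median spliced length was 441 against 456 bases, and the median exon number was 3 in both classes, with means of 4.07 and 4.14. Spans under 1000 bases made up 15.8% of the junctions of the small chromosomes and 10.4% of the others.

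In the separate E13 libraries the median span on chromosomes 11 and above was 5401, 6084 and 5598 bases. In the E19 libraries it was 5414, 4768 and 5302 bases. On chromosomes 1 to 10 the 6 values lay between 7768 and 8208 bases, all above those of the small chromosomes. Within a library the log2 ratio of the medians was -0.55 ± 0.12 (SD, n = 6), a ratio of 0.682, and it was negative in 6 of 6 libraries. An exact sign-flip test over libraries gave p = 0.031, the smallest that 6 libraries allow, and 0.0437 after Benjamini-Hochberg adjustment over 7 measures. All 6 libraries share 1 genome and annotation, so this test speaks of these libraries and not of genes.

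Span per exon showed the same order, with a median of 1205 bases against 1840 over all libraries and a log2 ratio within libraries of -0.48 ± 0.08 (exact p = 0.031, adjusted 0.0437, n = 6). Spliced length and exon number did not separate the classes. The log2 ratio of spliced length was 0.01 ± 0.03 and was positive in 3 of 6 libraries (exact p = 0.5). Mean exon number was higher by 0.0143 ± 0.0784 exons on the small chromosomes (exact p = 0.719).

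The gap in span depended on the exon number. Junctions of 1 exon, which hold no intron, had a median span of 237.5 bases on chromosomes 11 and above (188 junctions) and 234 bases on chromosomes 1 to 10. Junctions of 2 exons, which hold 1 intron, had 1532 bases (740 junctions) against 2803, a ratio of 0.546. The ratio was 0.633 at 3 exons, 0.737 at 4, 0.786 at 5, 0.849 at 6, 0.670 at 7 and 0.835 at 8 or more. Spliced length at 2 exons was 273 against 274 bases. Restricted to junctions of exactly 2 exons, a selection added after the data were seen, the log2 ratio of span within libraries was -0.73, and at exactly 3 exons -0.53, each negative in every library (exact p = 0.031).

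**Figure D1:**
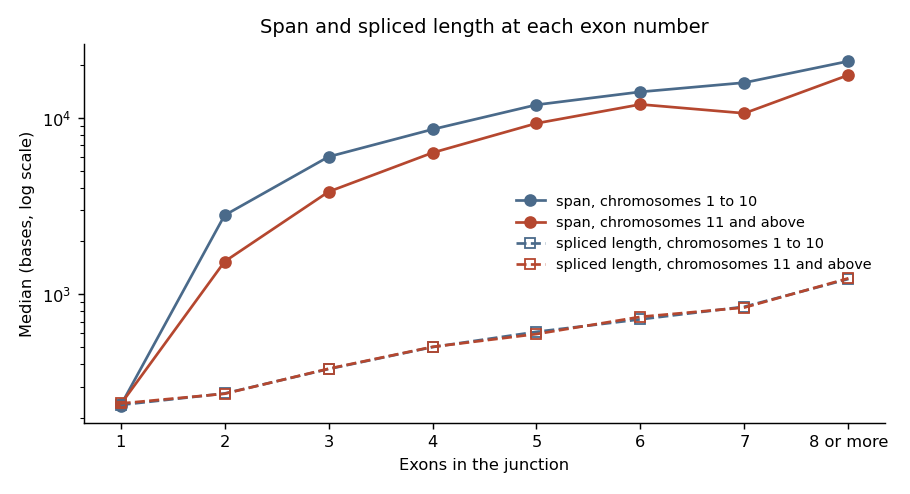
Median span (filled circles) and median spliced length (open squares), in bases on a log axis, against the number of exons in the junction, for chromosomes 11 and above and chromosomes 1 to 10. The span lines start together at 1 exon (237.5 and 234 bases) and lie apart from 2 exons on (1532 and 2803 bases), while the spliced lengths overlie each other.

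The introns outside the circle were also shorter in the class as a whole, though not on each chromosome. Positions of the flanking introns were listed for 501 junctions of the small chromosomes and 1884 of the others, all with at least 2 reads in a library. The median of the mean flank length was 7976 against 10640 bases, and the log2 ratio within libraries was -0.28 ± 0.11, negative in 6 of 6 libraries (exact p = 0.031, adjusted 0.0437).

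The place where the circle begins was similar in both classes, as a description. Among junctions listed with exon numbers, 23.2% of 2506 on chromosomes 11 and above began at exon 2 of the transcript and 6.07% at exon 1, against 23.8% and 5.75% on chromosomes 1 to 10. Of junctions present in a library, the share beginning at exon 2 on the small chromosomes was 28.5 ± 1.43% at E13 and 24.7 ± 0.920% at E19, without overlap (exact p = 0.1, the smallest that 3 against 3 libraries allow). On chromosomes 1 to 10 it was 26.6 ± 0.716% and 26.5 ± 0.603%. Whether the stage difference itself differed between the classes was not tested.

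Median span also differed among these chromosomes. It was 5384 bases on chromosomes 11 to 16, 4622 on 18 to 22 and 3064 on 23 to 29. Across the 18 chromosomes the Spearman correlation of median span with the last junction end was 0.814, and it was 0.857 across all 28, given as a description since the chromosomes share the libraries. Of the 18 chromosomes, 15 had a median below that of every chromosome from 1 to 10, and the lowest was chromosome 26 (1282 bases, 21 junctions). The order was not strict, since chromosome 29, which ended at 4.833 Mb, had 4279.5 bases and chromosome 21, which ended at 15.53 Mb, had 3922.5. Mean exon number followed the last end less closely (Spearman correlation 0.188 across the 18).

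Chromosome 18 had the highest median span of all 28 chromosomes, 9379 bases over 194 junctions, the highest mean exon number (4.89) and the most junctions per gene (3.66). DENND1A, which encodes an exchange factor for Rab proteins in endocytic traffic, gave 30 of the 194, with a median span of 24170 bases. Without DENND1A, a step added after the data were seen, the median of chromosome 18 was 7578 bases. Without chromosome 18 the median of the other small chromosomes was 4440 bases.

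**Figure D2:**
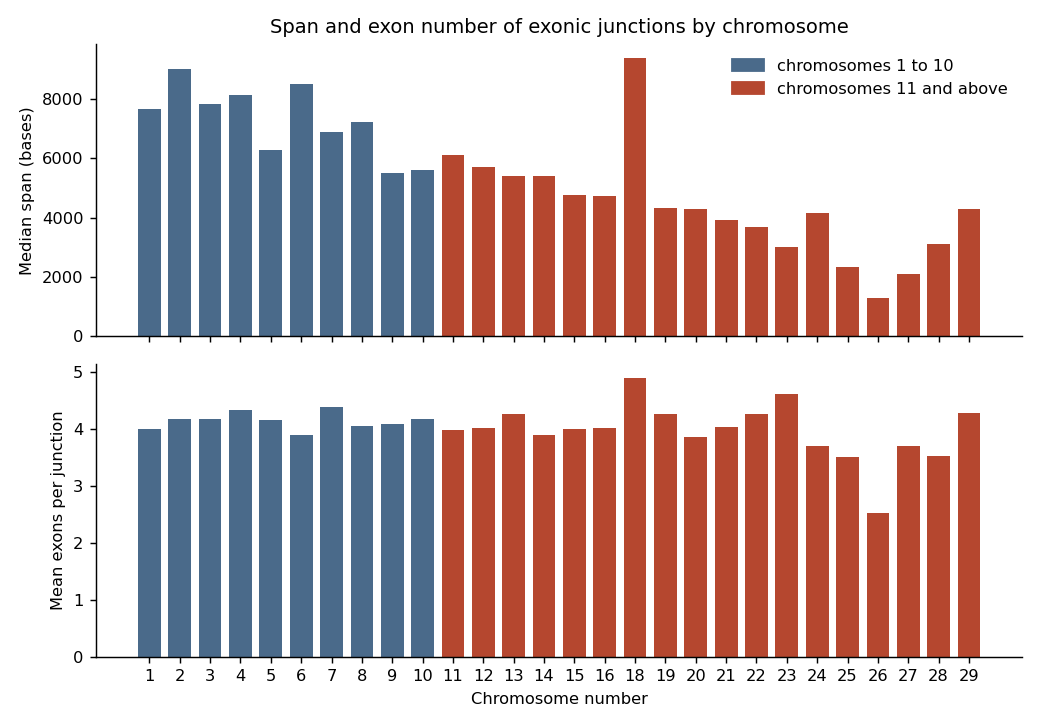
Median span in bases (upper bars) and mean number of exons (lower bars) of the exonic junctions of each numbered chromosome, over all 6 libraries. Chromosome 18 stands at 9379 bases among small chromosomes that otherwise lie between 1282 and 6094 bases.

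Widest of all members were junctions of TENM2, a teneurin of cell adhesion, on chromosome 14. The first of them, circRNA407, ran from 3615954 to 3995840 on the plus strand, a span of 379887 bases with 5 exons, and had 4 reads in all (1 at E13 and 3 at E19). The next 3 in width were also of TENM2 and had 1 to 8 reads. In all, 18 junctions were wider than 100000 bases, each of them on chromosomes 11 to 16. They lie outside the limit on span that the methods of the study state. Most exons were held by a junction of ABCA2, an ATP binding cassette transporter, with 38 exons in 20895 bases of chromosome 18 and 1 read. MYH10, a non-muscle myosin heavy chain, gave one of 34 exons with 2 reads, and NF1, neurofibromin, one of 26 exons with 1 read. Among junctions with at least 10 reads the narrowest was a single exon of FASN, fatty acid synthase, of 203 bases on chromosome 19, with 0, 1 and 10 reads at E13 and none at E19.

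Genes of the small chromosomes gave fewer different circles on average. There were 2.66 junctions per host gene against 3.15 on chromosomes 1 to 10, with a median of 2 in both classes. A single junction came from 49.3% of the 1059 host genes against 40.2%. By chromosome, 3 of the 18 lay below every chromosome from 1 to 10, of which chromosome 10 was lowest (2.29). Chromosome 18 (3.66) lay above all of them. Within libraries the mean was 1.76, 1.75 and 1.74 junctions per gene at E13 and 1.81, 1.82 and 1.80 at E19. The difference from chromosomes 1 to 10 was -0.239 ± 0.0714 junctions per gene, negative in 6 of 6 libraries (exact p = 0.031, adjusted 0.0437). Counting only junctions with at least 10 reads over the libraries, it was smaller, at -0.119 (exact p = 0.031). The part of read number in the class difference was not tested. Both classes had more junctions per gene at E19 without overlap of the stages (exact p = 0.1). Back-splice reads per library, summed over all listed entries before joining, were 43849 to 71406 at E13 and 60046 to 88916 at E19. Their part in this was not tested.

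At least 10 junctions came from each of 44 genes (4.15%). DENND1A gave 30, EYA2 25, ADAMTS17 25, BCAS3 20, MAPKAP1 19, MEF2A 18, NF1 17 and NR2C2 16. EYA2 is a transcriptional coactivator and phosphatase that acts with homeobox partners in muscle formation, and MEF2A is a transcription factor of muscle genes. ADAMTS17 is a secreted metalloprotease, MAPKAP1 a subunit of an mTOR kinase complex, NF1 a brake on Ras and NR2C2 an orphan nuclear receptor.

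A leading junction usually held most reads of a gene. Over 347 genes with at least 2 junctions and 10 reads, the median share of the leading junction was 64.7%, against 62.5% over 1118 genes of chromosomes 1 to 10. BCAS3 stood at 77.1%, EYA2 at 61.5%, DENND1A at 45.4%, ADAMTS17 at 23.2% and NR2C2 at 16.7%. Of the 2297 junctions from genes with at least 2, 67.3% shared a back-splice site with another junction of the gene, against 71.7% on chromosomes 1 to 10.

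Junctions of the small chromosomes also had fewer reads on average, though not on each chromosome. The mean was 15.98 reads per junction over the 6 libraries against 22.8, with a median of 3 in both classes, and 65.6% against 60.0% were seen in a single library. Within libraries the log2 ratio of mean reads per junction was -0.38 ± 0.13 (6 of 6 libraries negative, exact p = 0.031, adjusted 0.0437). A single junction of ENSAPLG00000008538 on chromosome 2 held 13.0% of the reads of chromosomes 1 to 10, and without it the log2 ratio was -0.19 (exact p = 0.031). Mean reads per junction over the 6 libraries were 14.1 on chromosomes 11 to 16, 22.2 on 18 to 22 and 11.5 on 23 to 29. Of the 18 chromosomes, 9 lay below every chromosome from 1 to 10, and chromosome 22 (33.87) lay above all of them.

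The difference in span was smaller among abundant junctions. Junctions with 1 read had a median span of 3607 bases on chromosomes 11 and above and 6505 on chromosomes 1 to 10, and those with 2 to 9 reads had 4554 and 7746. At 10 to 99 reads the values were 6690 and 8524, and at 100 reads or more 7048 (76 junctions) and 7369 (315 junctions). Exon number on the small chromosomes went the other way, from a mean of 4.30 at 1 read to 3.53 at 100 reads or more. It fell likewise on chromosomes 1 to 10, from 4.32 to 3.38. Counting only junctions with at least 10 reads over the libraries, the log2 ratio of span within libraries was -0.31, negative in every library (exact p = 0.031).

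**Figure D3:**
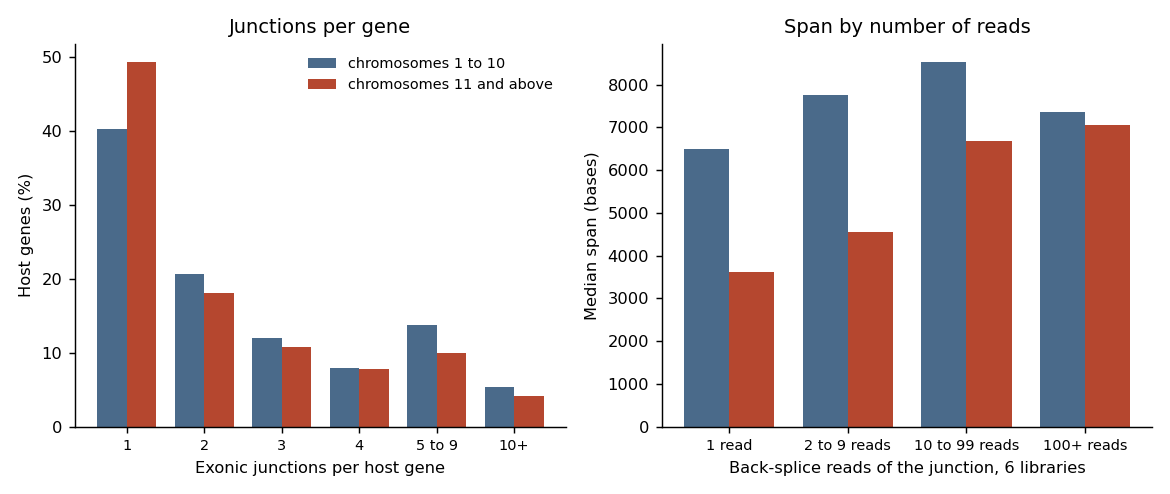
Left, percent of host genes by their number of exonic junctions. Right, median span in bases by the back-splice reads of the junction over 6 libraries. Bars are chromosomes 1 to 10 and chromosomes 11 and above, and the right bars go from 3607 against 6505 bases at 1 read to 7048 against 7369 at 100 reads or more.

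The 10 junctions with the highest mean SRPBM, the level the authors made from back-splice reads by scaling to mapped reads, came from 10 genes on 7 chromosomes and held 20.1% of the reads of all members. On chromosomes 1 to 10 the 10 junctions with most reads held 20.8% of the reads of that class. In 9 of the 10 junctions of the small chromosomes the stages overlapped, and of all junctions tested 14.5% did not overlap. The DENND1A junction circRNA525 (chromosome 18, 10148909 to 10172429, minus strand, 4 exons) led with 265, 219 and 194 reads at E13 and 215, 235 and 176 at E19, or 55.8 ± 7.21 and 50.6 ± 8.42 SRPBM. It was followed by circRNA661 of CAPZB, the beta subunit of the actin capping protein of the Z line, on chromosome 22, with 44.4 ± 23.3 SRPBM at E13 and 41.4 ± 4.51 at E19. The E13 libraries of CAPZB, with 281, 73 and 198 reads, lay on both sides of all its E19 values.

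AUTS2, a regulator of transcription in development, had 48.4 ± 22.1 SRPBM at E13 and 36.1 ± 15.2 at E19 for circRNA707 on chromosome 20. For the small GTPase CDC42, circRNA672 on chromosome 22 had 31.8 ± 8.60 and 41.7 ± 10.1 SRPBM. The level of circRNA3276 of DOT1L, a histone lysine methyltransferase, on chromosome 29 differed between stages by less than its spread, at 35.4 ± 3.23 and 35.4 ± 5.45 SRPBM. RANBP17 (importin family), BCAS3 (cell migration), EYA2 and SCAI (a transcription cofactor) completed the overlapping 9, with edgeR log2 changes from -0.42 to 0.26 and none called. The tenth, PEPD, is described below.

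The share of exonic back-splice reads that fell on chromosomes 11 and above was lower in every E19 library. It was 20.7, 20.03 and 19.9% in the E13 libraries and 17.9, 16.9 and 18.2% in those of E19, without overlap. The difference was -2.53 percentage points (exact permutation test, two-sided p = 0.1, the smallest that 3 against 3 libraries allow). The ENSAPLG00000008538 junction took 6.24 to 7.23% of exonic reads at E13 and 10.2 to 17.5% at E19. Without it, an alternative added after the data were seen, the share was 21.6 ± 0.409% and 20.4 ± 0.152%, a difference of -1.25 points, again without overlap (exact p = 0.1).

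Per 1000000 mapped reads the small chromosomes gave 274.5 ± 51.7 reads at E13 and 289.4 ± 46.8 at E19 (exact p = 0.7), so their level overlapped between stages. On chromosomes 1 to 10 the levels were 1082 and 1356 on the same scale (exact p = 0.2). The share of junctions, in contrast to that of reads, was 23.4 ± 0.302% and 23.1 ± 0.623% (exact p = 0.6).

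**Figure D4:**
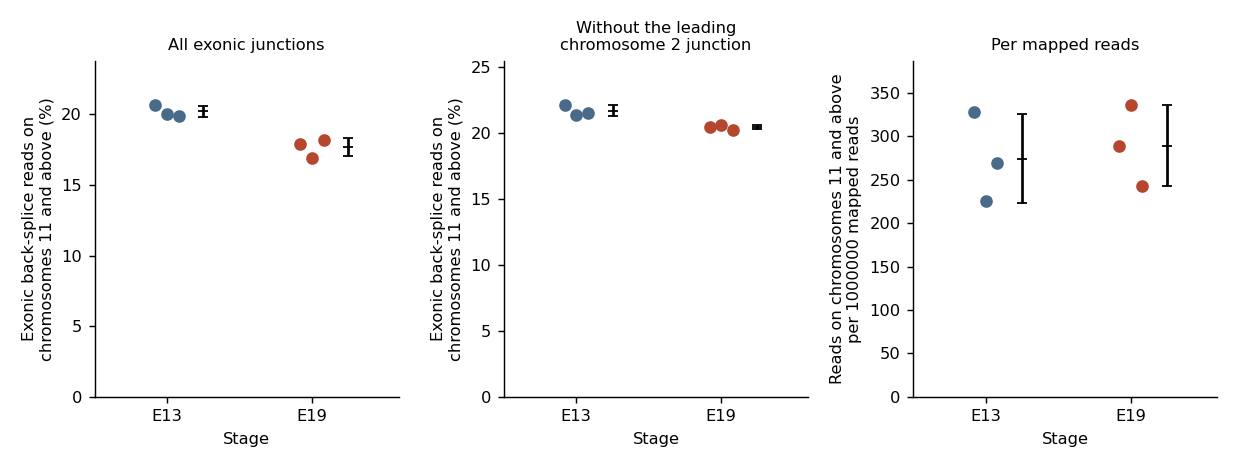
Percent of exonic back-splice reads on chromosomes 11 and above with all junctions (left) and without the leading junction of chromosome 2 (middle), and their reads per 1000000 mapped reads (right). Points are libraries and bars are mean ± SD of 3, and the stages are apart in the shares (-2.53 and -1.25 points) and overlap per mapped reads.

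Of the 18 small chromosomes, 13 had a higher mean share of exonic reads at E13, as did 7 of the 10 chromosomes of the comparison class. In 7 of them (11, 12, 13, 15, 20, 28 and 29) the stages did not overlap, each with the higher share at E13, and of all 28 chromosomes 46.4% did not overlap. The total behind these shares includes the ENSAPLG00000008538 junction, with a mean of 6.66% of exonic reads at E13 and 13.3% at E19. A larger part for it lowers the share of every other chromosome, and shares per chromosome without it were not computed. The count of 7 therefore holds only with this junction in the total. On chromosome 11 the lowest E13 share was 2.519% and the highest E19 share 2.516%. Chromosome 12 held 1.69, 1.45 and 1.38% of reads at E13 and 0.872, 0.939 and 0.916% at E19, and PEPD gave 1033 of its 2844 reads. Chromosome 29 held 0.852, 1.06 and 0.878% at E13 and 0.682, 0.592 and 0.760% at E19. The mean share of chromosome 2 was 19.6% at E13 and 25.9% at E19, and chromosomes 7 and 10 were also higher at E19 without overlap. Chromosomes 3, 4 and 9 were higher at E13 without overlap.

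The log2 ratio of span was -0.47 ± 0.08 at E13 and -0.64 ± 0.08 at E19, and the log2 ratio of mean reads per junction -0.27 ± 0.04 and -0.48 ± 0.10. In both the stages did not overlap (exact p = 0.1). The stage difference in span was -0.17 on the log2 scale. It had an exact p of 0.2 with 1 value per host gene (-0.17) and with chromosomes 14 and above (-0.21). At exactly 2 exons it was -0.19 (exact p = 0.6), and in the other alternatives with all 6 libraries the exact p stayed at 0.1. The stage difference in reads per junction was -0.21 on the log2 scale, -0.08 without the ENSAPLG00000008538 junction and, with the sign turned, 0.02 with 1 value per host gene. The differences of exon number (exact p = 0.4) and of junctions per gene (exact p = 0.2) between the classes overlapped between stages.

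Few single junctions of the small chromosomes passed a test between stages. Of the 2819 members, 552 had at least 10 reads over the 6 libraries and were tested with edgeR among 3609 junctions of all types and chromosomes. At an adjusted p under 0.05, 1 member was called, lower at E19, beside 1.16% of all junctions tested. With a log2 change of 1 or more in size and an unadjusted p up to 0.05, 34 of 552 passed (6.16%), against 9.01% of all, and 16 passed without E19 replicate 2. Of these, 15 were higher at E19 (2.72%, against 6.01% of all) and 19 lower (3.44%, against 2.99% of all). Scaled to the sum of back-splice reads of each library (all listed entries, before joining), the split was 8 higher and 32 lower. With DESeq2 it was 10 and 27, and with TMM factors 11 and 24.

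The stages of 62 members did not overlap, 31 higher and 31 lower at E19, which is 11.2% of the tested members beside 14.5% of all junctions tested. The median log2 change of the tested members was 0.16, beside 0.26 over all. Scaled to the sum of back-splice reads, both medians moved down, to -0.19 and -0.08. Of the 34 past the thresholds, 7 had no read at E13 and 10 none at E19, and p-values measure only the spread between these embryos.

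The called junction was circRNA415 of SLIT3, which encodes a secreted guidance ligand of the Roundabout receptors. It joins 3 exons (chromosome 14, 4553837 to 4570199, minus strand, span 16363 bases, spliced length 216 bases) and begins at exon 6. Reads were 46, 19 and 43 at E13 and 3, 0 and 4 at E19, so every E13 library lay above every E19 library. The level was 8.76 ± 3.23 SRPBM at E13 and 0.557 ± 0.494 at E19. The edgeR log2 change was -3.90 (SE 0.760), with an adjusted p of 0.000451. The adjusted p was under 0.05 in 13 of 15 alternatives, and it was 0.157 without E13 replicate 1 and 0.0839 without E19 replicate 2. All 15 junctions of SLIT3 together had 77, 38 and 57 reads at E13 and 16, 0 and 17 at E19 (log2 change -2.40, SE 0.510, adjusted p = 0.000406, and 0.0687 without E19 replicate 2).

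PEPD, prolidase, cleaves dipeptides that end in proline, as arise from collagen breakdown. Its leading junction, circRNA122 (chromosome 12, 10847983 to 10864806, minus strand, 6 exons from exon 4), had 321, 142 and 164 reads at E13 and 85, 103 and 83 at E19. Every E13 library was above every E19 library, at 50.8 ± 20.6 against 21.9 ± 3.14 SRPBM. The log2 change was -1.22 (SE 0.378) with an edgeR adjusted p of 0.0906, and the adjusted p was under 0.05 in 4 of 15 alternatives. A second junction, circRNA3454, ends at the same position and has 4 exons, with 15, 16 and 21 reads at E13 and 4, 0 and 0 at E19 (adjusted p = 0.0780). Over its 15 junctions PEPD had 734 reads at E13 and 299 at E19 (log2 change -1.30, SE 0.363, adjusted p = 0.0177), a call kept in 10 of 15 alternatives. It was lost without E13 replicate 1 (adjusted p = 0.226) or 3 (0.0503) and without E19 replicate 1 (0.186) or 3 (0.105). The paper also measured a PEPD circle, circPEPD-1, by quantitative PCR and reports it as significantly downregulated. Which listed junction that circle is was not checked.

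Among host genes, 4 of 413 tested were called (adjusted p under 0.05), of which 3 were lower and 1 was higher at E19, beside 2.65% of 1697 host genes of all chromosomes. Leaving out E13 replicate 1 gave 2 calls, and leaving out E13 replicate 3, E19 replicate 1 or E19 replicate 2 gave 1 each. Besides SLIT3 and PEPD, CASKIN1, a scaffold protein that binds the kinase CASK in mammals, was lower. Its only junction, circRNA347, is a single exon of 215 bases (chromosome 15, 1120281 to 1120495, plus strand) with 15, 2 and 18 reads at E13 and none at E19. Pooled, the E13 reads were 11.9-fold above a floor of 3 reads over E19 (edgeR adjusted p = 0.0219 for the gene and 0.0670 for the junction). The gene call was kept in 6 of 15 alternatives, and among fits without 1 library only the one without E13 replicate 2 kept it (0.0532 to 0.213 in the others).

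The gene called higher was ENSAPLG00000015697 on chromosome 16, which the list gives no symbol. It had no read at E13 and 24, 7 and 1 reads at E19 (edgeR adjusted p = 0.0367, kept in 3 of 15 alternatives). Pooled, the E19 reads were 10.4-fold above a floor of 3 reads over E13, which leaves out the spread between libraries. E19 replicate 1 held most of these reads, and without it under 10 were left and the gene was not tested. The adjusted p was 0.113, 0.158 and 0.114 without E13 replicates 1, 2 and 3, and 0.0698 without E19 replicate 2. ARVCF, an armadillo-repeat protein that binds cadherins, also on chromosome 16, had 51, 29 and 35 reads at E13 and 88, 148 and 49 at E19, with an adjusted p of 0.0511 and overlapping stages.

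Other junctions with the smallest p among those without overlap had adjusted p-values of 0.234 to 0.434. Higher at E19 in every library was circRNA4460 of ENSAPLG00000002683 (chromosome 21), with 12, 6 and 12 reads against 36, 37 and 21, a log2 change of 1.62 (SE 0.623). For ADCY9, an adenylate cyclase, circRNA5324 (chromosome 15, 11410693 to 11421854, 3 exons) went from 0, 1 and 0 reads to 10, 13 and 8. All 7 junctions of ADCY9 together had 19, 8 and 0 reads at E13 and 16, 32 and 8 at E19, with overlap (edgeR adjusted p = 0.704). ERGIC1, a protein of the intermediate compartment between the endoplasmic reticulum and the Golgi, had 2, 3 and 2 reads of circRNA425 at E13 and 12, 11 and 22 at E19. The stages were apart in all of these single junctions, and none passed the adjusted threshold.

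A junction of AKAP13, an anchor of protein kinase A, and one of EPN2, an adaptor of endocytosis, had no read at E13 and 20 reads each at E19. These pooled E19 reads were 6.53-fold above a floor of 3 reads over E13. All 12 junctions of AKAP13 together had 11, 8 and 7 reads at E13 and 15, 24 and 14 at E19 (edgeR adjusted p = 0.753). On the lower side, PTPRS, a receptor tyrosine phosphatase, had 60, 29 and 24 reads of circRNA817 (chromosome 29) at E13 and 18, 16 and 10 in E19 libraries (log2 change -1.36, SE 0.565). RBFOX1, a splicing regulator of muscle and nerve, had 21, 6 and 11 reads of circRNA4658 (chromosome 15) against 3, 0 and 2. KANSL1, a subunit of a histone acetyltransferase complex, had 34, 10 and 20 reads of a single-exon circle of 1386 bases (chromosome 28) against 9, 5 and 6. SHQ1, which helps assemble H/ACA ribonucleoproteins, had 19 reads at E13 and none at E19.

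**Figure D5:**
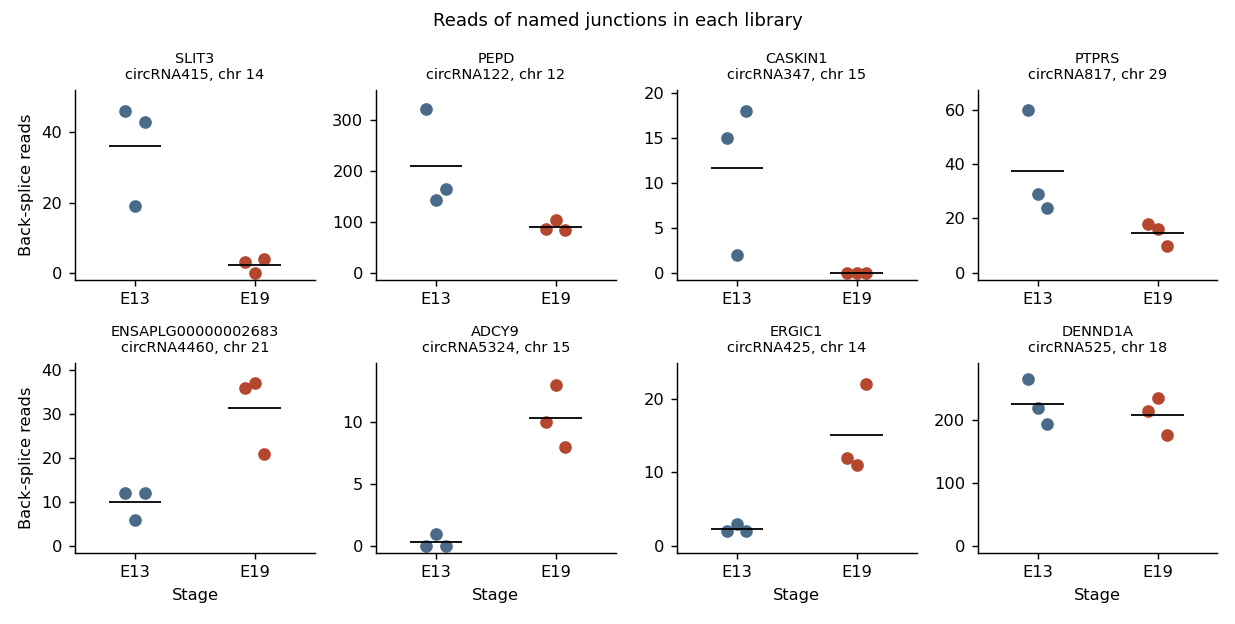
Back-splice reads in each library (points) with the stage mean (line) for 8 junctions of chromosomes 11 and above. SLIT3, PEPD, CASKIN1 and PTPRS are lower in every E19 library, ENSAPLG00000002683, ADCY9 and ERGIC1 are higher in every E19 library, and DENND1A overlaps (265, 219 and 194 against 215, 235 and 176 reads).

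By function, 108 genes of the lists had junctions on these chromosomes, and 58 were tested as host genes. None was called by edgeR, DESeq2 or limma voom at an adjusted p under 0.05, and 1 (PTPRS) with TMM factors or the sum of back-splice reads. At an unadjusted p under 0.05 there were 4, which also passed the thresholds with a log2 change of 1, as 8.72% of the 413 tested host genes of these chromosomes and 12.3% of all host genes did. Those were KIF1B, a kinesin (8, 3 and 13 reads at E13, 34, 19 and 26 at E19), and PPP3CC, a catalytic subunit of calcineurin (16, 5 and 6 against 28, 36 and 5), both higher, and PTPRS and DNM1, a dynamin (40, 23 and 24 against 11, 20 and 8), both lower. The stages of KIF1B and DNM1 did not overlap, whereas those of PPP3CC did.

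Of all host genes on numbered chromosomes 28.1% lay on the small ones. The lists were written by hand with earlier results of these data known. Their fractions on the small chromosomes are therefore descriptions and were not tested against 28.1%. Of the sarcomere and myofibre list, 16 genes had exonic junctions and 3 of them lay on the small chromosomes, with 47 reads together. They were MYH10, the sarcoglycan SGCD and the myomesin MYOM3. MYH10, a non-muscle myosin that the list includes, held 28 of these reads. Myogenic regulators and fusion genes counted 7 of 17, with 1512 reads, led by EYA2 (1091 reads), IGF1R, a growth factor receptor (238), and MEF2A (170). None of the 3 that were tested passed, with log2 changes of 0.11 ± 0.36 (SE) for EYA2, -0.59 ± 0.45 for IGF1R and 0.77 ± 0.51 for MEF2A.

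Of the kinases and phosphatases, 21 of 56 genes with exonic junctions lay on the small chromosomes, with 1845 reads, led by MAP2K5 (448) and MAP2K4 (428), which encode kinases of the MAP kinase cascades. Of the 16 tested, 1 passed the thresholds, PTPRS, and the median log2 change was 0.30, beside 0.22 over all host genes tested and 0.21 over those of the small chromosomes. Chromatin and transcription cofactors counted 21 of 32, led by the corepressor RERE (589 reads) and the demethylase KDM4B (221), with none of 8 tested past the thresholds and a median of 0.03. Splicing and RNA binding genes counted 17 of 32, led by RBFOX1 (199 reads, 128 at E13 and 71 at E19, without overlap once divided by mapped reads), with none of 7 past and a median of -0.49.

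Cytoskeleton and adhesion genes counted 17 of 41, led by ARHGAP26, a GTPase-activating protein, with 646 reads. Of the 11 tested 2 passed, KIF1B and DNM1, with a median of 0.60. Calcium and cyclic AMP genes counted 10 of 22, and of the 6 tested 1 passed, PPP3CC, with a median of 0.78. Ubiquitin and protein turnover genes counted 12 of 34, and of the 6 tested none passed, with a median of -0.39. FBXW11, a substrate receptor of a ubiquitin ligase, had 40, 27 and 16 reads at E13 and 46, 42 and 56 at E19, without overlap. These medians of a few genes are given as descriptions beside those of all genes.

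Tissue markers were read from circles on all numbered chromosomes. Like the genes of the lists, they were matched by symbol. Of the 1059 host genes of the small chromosomes, 202 had only an Ensembl ID, and a marker listed in that way would count as 0. Of 12 muscle markers 4 had exonic circles (LDB3, DMD, MYBPC1 and ACTN2), with 86 to 119 reads per library at E13 and 120 to 268 at E19, and TTN, NEB and RYR1 were at 0. Nerve and Schwann cell markers had 3 of 16 genes with 23 to 64 reads per library at E13 and 65 to 170 at E19, without overlap, and SOX10 was at 0. Connective tissue markers had 4 of 14 genes with 0 to 6 reads per library, endothelium 3 of 10 with 0 to 4 reads, and blood and immune cells 0 of 13. Of these markers only PDGFRB, with 2 reads, lay on the small chromosomes. The part of such cells in the results above was not tested.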

How the data were processed

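The authors trimmed the reads with Cutadapt, mapped them to the duck genome of Ensembl with Bowtie 2 and TopHat 2, and called back-splices with TopHat-Fusion, CIRCExplorer2 and CIRI. Their versions and the build are not given in sources used here. Deposited counts give the reads of each back-splice in each library, not normalized. The deposited signal, SRPBM, was computed by the authors from the counts and the mapped reads. Deposited columns of fold changes and p-values hold the authors' own comparison of the stages and were not used. Listings of 2 forms occur, with starts 1 base apart, and were joined. A second deposited table of counts was run as an alternative.

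Exonic junctions were counted per library and class, and class measures were compared within libraries by exact sign flips and between stages by exact permutation (two-sided). Junctions of every type, and exonic reads summed per host gene, were tested with edgeR 4.0.16 (R 4.3.3) by the quasi-likelihood test, with the mapped reads as library size, at least 10 reads over the 6 libraries, and Benjamini-Hochberg adjustment over all tested (threshold 0.05). The SE was derived from the change and its F statistic. The method was tested on simulated data. DESeq2 1.42.0, limma 3.58.1 (voom), TMM factors, other filters, boundaries at chromosomes 10 and 14, and leaving out single libraries were alternatives. Library pairs within a stage differed by more than sampling noise (chi-square per degree of freedom 4.56 to 5.61). Count depth was 43849 to 88916 back-splice reads, so most junctions are near the limit of detection. This depth is the sum over all listed entries before joining, so both entries of a joined pair are in it.

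Junctions named are the 10 of smallest p in each direction without overlap, the 10 of highest mean SRPBM, the 5 widest, the 5 with most exons and the 5 narrowest with at least 10 reads. Genes named are the 8 with most junctions, the 8 of smallest p, up to 4 of each gene list, and PEPD, which the paper names. The paper also names RBFOX1 and members of the adenylate cyclase family, in its network of parental gene products. RBFOX1 and ADCY9 entered here by the other rules. The text gives values for the main ones of these. Members, lists and rules were chosen with earlier results of these data known. A few marker genes are not reported here. Overlap of the stages was judged on reads divided by mapped reads.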

Additional observations from a re-analysis of the deposited data

How the results depend on the processing

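Direction under the alternatives was compared for the junctions of smallest p without overlap and for the host genes of smallest p. All 405 of these values kept their direction. The junctions were selected for stages without overlap, and the host genes for the smallest p in the same counts. Both selections largely fix the direction beforehand, so the comparison decides little. Direction under the alternatives was not compared for the other named junctions and genes. Across the alternatives with all 6 libraries, the differences in span, span per exon, flanking introns, reads per junction and junctions per gene kept their sign and an exact p of 0.031. Leaving out single libraries gave log2 ratios of -0.586 to -0.519 for span, -0.513 to -0.470 for span per exon, -0.309 to -0.251 for flanking introns and -0.406 to -0.339 for reads per junction, and differences of -0.262 to -0.220 junctions per gene. With 5 libraries no exact p can go below 0.0625, so these say nothing of the threshold. At 10 reads or more, spliced length (log2 ratio 0.0142) and exon number (0.0540 exons) passed (exact p = 0.031), and the stage difference in junctions per gene turned to 0.0222. With 1 value per host gene, spliced length turned to -0.00445 and the stage difference in reads per junction to 0.0154. The stage difference in the share of junctions was 0.325 with chromosomes 14 and above, and -0.560 to 0.0394 without single libraries, and that of the share of reads -2.78 to -2.16. Exon number was -0.00114 to 0.0412 without single libraries. The cause of these changes was not tested.

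Junctions called were 4 with DESeq2, 2 with TMM factors, limma voom or total back-splice reads, and 0 to 2 without single libraries. Junctions past the unadjusted thresholds were 19 at 20 reads or more, 22 on chromosomes 14 and above (fewer are tested in both), and 16 to 29 without single libraries, the lowest without E19 replicate 2. Host genes called were 2 at 20 reads or more or with limma voom, and 1 to 4 without single libraries. With the replicate number as a block, 1 junction and 1 host gene were called and 14 junctions passed the thresholds, and the differences in share kept their values. Correlations between libraries of the same number, after centring within each stage, were -0.0483, -0.0417 and -0.0395. They show no pairing of the embryos by number, and with 3 libraries per stage they cannot exclude one. With 24.7% of the members at 1 read, depth limits every count of circles.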
